A study of Arabidopsis thaliana with 6 samples.

Results

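The 8 transcription regulators described here act in pollen of Arabidopsis thaliana, and their counts were followed in pollen that carries the paps1-3 allele and in wild-type pollen. They are the R2R3 MYB factors MYB97 (AT4G26930), MYB101 (AT2G32460) and MYB120 (AT5G55020), the WRKY factors WRKY2 (AT5G56270) and WRKY34 (AT4G26440), the VQ protein VQ20 (AT3G18360), and the basic leucine zipper factors BZIP18 (AT2G40620) and BZIP34 (AT2G42380). The genes were chosen by identifier, 8 of the 33602 genes counted, and all 8 passed the filter on low counts that left 14273 genes for testing. PAPS1 (AT1G17980) encodes a nuclear poly(A) polymerase, one of the enzymes that polyadenylate newly made messenger RNA. Its own counts, in the order A, B, C used throughout, were 18, 9 and 3 in paps1-3, against 32, 25 and 20 in wild type, a log2 fold change of -2.61 with TMM scaling (adjusted p = 0.000273 by edgeR) and of -1.35 by library totals (adjusted p = 0.0465 by edgeR). Pollen came from Col plants whose genotype is given as PAPS1 pLat52::RFP / paps1-3, so the paps1-3 and the wild-type fraction came from the same kind of plant. The fractions were separated by flow sorting on red fluorescent protein, whose pLat52 promoter is active in pollen. In the genotype as given, this reporter is written beside the PAPS1 allele. The sources used here state neither the gates nor the purity reached. Genotype and sorted fraction coincide in every library, so their parts in a difference cannot be told apart. There were 3 libraries of total RNA per genotype, lettered A to C, with 19861313 to 41176647 gene counts in paps1-3 and 31909683 to 37685541 in wild type. The labels do not say whether a letter marks its own plants or its own sort. Every p-value is therefore set against the spread among these libraries alone, and that spread may be technical.

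A mature pollen grain holds a large vegetative cell, which grows the pollen tube, and the sperm cells it carries. MYB97, MYB101 and MYB120 are closely related to the gibberellin-responsive GAMYB factors. They act redundantly in the tube nucleus, and tubes that lack all of them reach the ovule but fail to stop growing and release their sperm. WRKY2 and WRKY34 act together earlier, in pollen development, where WRKY34 is a substrate of the MAP kinases MPK3 and MPK6. VQ20 carries the short VQ motif by which such proteins bind WRKY factors, and it partners WRKY2 and WRKY34. BZIP34 is needed for normal pollen wall patterning and lipid metabolism, and BZIP18 is a relative that can pair with it.

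The MYB genes share a stretch of coding sequence that pairs with the microRNA miR159, a known repressor of GAMYB-like genes. The stretches are shown because they are the known site of that repression. The microRNA is written with its seed (bases 2 to 8) in capitals. In the transcript stretches, capitals mark bases that form a Watson-Crick pair with miR159a, and lower case marks mismatches and G:U pairs. All sequences are 5′ to 3′, from RefSeq on assembly TAIR10.1.
miR159a: uUUGGAUUgaagggagcucua
MYB97: auGAGCUCuCUUCAAaCCAAA
MYB101: UAGAGCUuCCUUCAAaCCAAA
MYB120: agcAGCUCCCUUCAAaCCAAA
MYB33: UgGAGCUCCCUUCAuUCCAAu

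The stretch lies in exon 2 of each of these genes, at chr4:13528587-13528607 on the + strand for MYB97, chr2:13783168-13783188 on the - strand for MYB101, chr5:22324982-22325002 on the - strand for MYB120 and chr5:1839579-1839599 on the + strand for MYB33, a widely expressed relative. Of its 21 bases, 19 pair by Watson-Crick rules in MYB101, 17 in MYB97, 17 in MYB120 and 18 in MYB33. MYB97, MYB101 and MYB120 share the same 3′ part, with a mismatch to the seed at the same base. Mature microRNAs were not measured. The gene of miR159a had 0 counts in all 6 libraries, that of miR159b 1 count and that of miR159c 3 counts, all of these in paps1-3, and a count of 0 allows up to 3 counts. Elements known to be bound by WRKY, MYB and bZIP factors were searched in the window from 250 bases before to 50 bases after the annotated gene start. The W-box bound by WRKY factors (TTGACC or TTGACT, both strands) was found in 0 of the 8 windows, against 32.4% of 27443 windows of protein-coding genes. Its core TTGAC, which every W-box contains, was in the MYB120 window alone, against 50.5% of windows. The GAMYB-type element TAACAAA was in 0 of the 8, against 18.4%, and ACGT, the core of plant bZIP elements, was in 6 of the 8, against 49.9%. A match or its absence in this window says nothing of whether a factor binds the gene.

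In paps1-3 pollen the 8 genes divided, and the division ran through each family. By edgeR with TMM scaling, BZIP18, MYB97, WRKY2 and MYB101 were lower, VQ20 and BZIP34 were higher, and WRKY34 and MYB120 did not pass at an adjusted p below 0.05. Thus 4 of 8 were called lower, where 29.9% of all genes tested were, and 2 of 8 higher, where 42.3% were. The median log2 fold change of the 8 genes was -0.73, against 0.37 over all genes tested. The TMM factors lay at 1.47 to 1.68 for the paps1-3 libraries and at 0.612 to 0.672 for the wild-type libraries, so scaling by library totals moves the log2 fold changes up, by a median of 1.25. By totals BZIP18, MYB97 and WRKY2 were lower, 3 of 8, where 9.7% of genes were. VQ20, BZIP34, WRKY34 and MYB120 were then higher, 4 of 8, where 70.3% of genes were, and MYB101 did not pass. The median by totals was 0.53 for the 8 genes and 1.63 for all genes tested. BZIP18, MYB97, WRKY2, VQ20 and BZIP34 were therefore called in the same direction under both scalings. Bulk counts cannot tell fewer cells of a type from less RNA per cell.

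**Figure D1:**
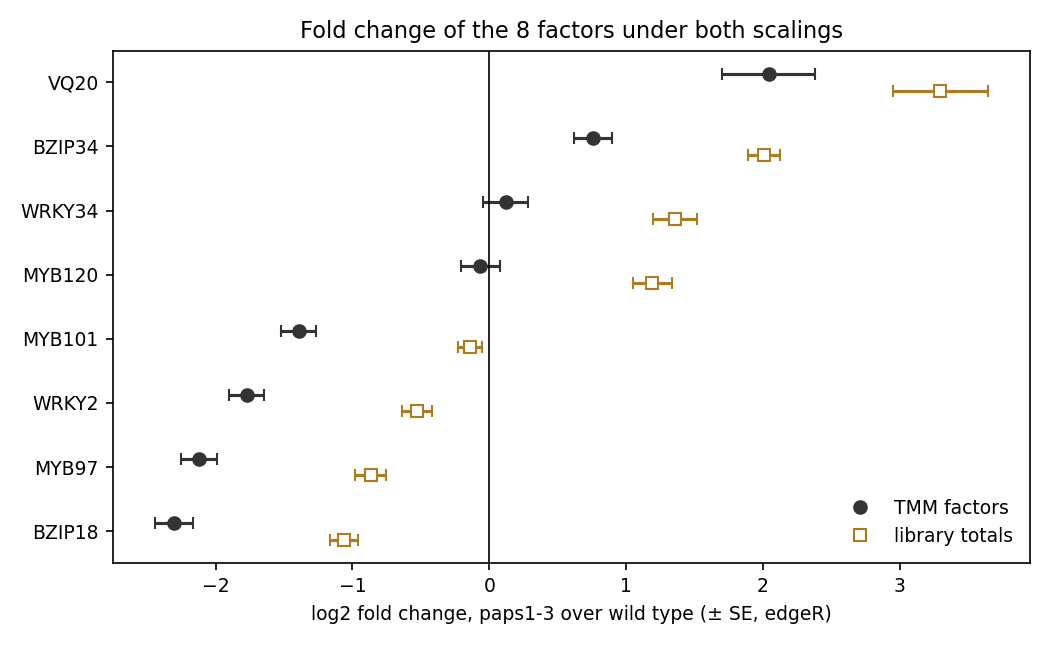
Log2 fold change of each gene, paps1-3 over wild type, with its standard error from edgeR, by TMM factors (filled circles) and by library totals (open squares), n = 3 libraries per genotype. The order of the genes is the same under both scalings, from VQ20 (2.04 by TMM) to BZIP18 (-2.30 by TMM), while the zero line falls between different genes.

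MYB101 was by far the most abundant of the factors. Per kilobase of annotated exon it stood at 489 ± 37 CPM in paps1-3 and 1284 ± 109 CPM in wild type (CPM is the count relative to the TMM-scaled library size; mean ± SD, n = 3 each), and it was at or above percentile 99.6 of all counted genes in every library. Its TMM-scaled level was 854, 949 and 990 CPM in paps1-3, against 2357, 2296 and 2682 CPM in the wild-type libraries. The groups did not overlap. Their log2 fold change of -1.39, with an SE of 0.13, passed by edgeR (adjusted p = 9.57e-10). By library totals the levels were 1429 ± 26 and 1582 ± 52 CPM in paps1-3 and wild type. The libraries did not overlap there either, at 1402 to 1455 CPM against 1543 to 1641 CPM. The log2 fold change by totals was -0.14 ± 0.09 and did not pass (adjusted p = 0.151 by edgeR). The call for MYB101 thus rests on the scaling.

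MYB97 was lower under both scalings. It had 55.5, 55.9 and 51.0 CPM (TMM) in paps1-3, against 243.8, 205.6 and 259.6 CPM in wild type, with 1489 to 3413 and 4525 to 5987 counts behind them. The paps1-3 libraries lay close together and far below the lowest wild-type library. The log2 fold change was -2.13 ± 0.13 (adjusted p = 6.83e-13 by edgeR), and -0.87 ± 0.11 by totals (adjusted p = 3.52e-06 by edgeR).

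MYB120 did not follow its relatives. Its TMM-scaled level was 46.8, 51.7 and 36.8 CPM in paps1-3, against 47.2, 42.1 and 52.8 CPM in wild type, and the groups overlapped. The log2 fold change was -0.07 ± 0.14 (adjusted p = 0.682 by edgeR). By totals it was higher, at 78.4, 76.4 and 54.1 CPM against 31.2, 28.3 and 32.3 CPM, a log2 fold change of 1.19 ± 0.14 (adjusted p = 9.76e-07 by edgeR). Library C of paps1-3 was the lowest of its group on both scales, and its value was still above every wild-type library by totals.

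The split among the MYB genes can be read without any scaling factor, as each gene's share of their summed counts within a library. MYB97 held 5.28% ± 0.54 in paps1-3 and 8.65% ± 0.56 in wild type, and MYB120 held 4.40% ± 0.85 and 1.73% ± 0.07 (mean ± SD, n = 3 each). Both differences were free of overlap, with a two-sided exact permutation p of 0.1, the smallest that 3 against 3 libraries allow. MYB101 held 90.3% ± 1.3 and 89.6% ± 0.6, which overlapped (exact permutation p = 0.6). The log2 ratio of MYB97 to MYB120 was 0.28 ± 0.18 in paps1-3 and 2.32 ± 0.04 in wild type, so these genes were near parity in paps1-3, while MYB97 was several times the more counted in wild type.

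**Figure D2:**
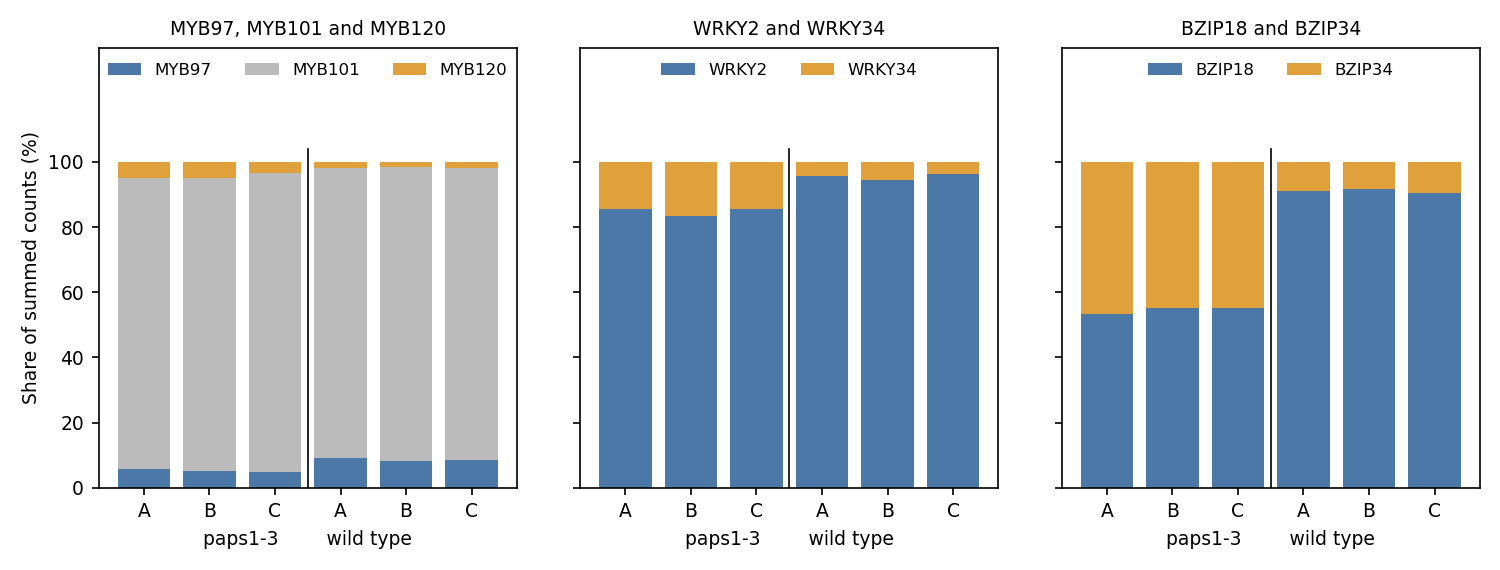
Share of summed counts held by each gene within the MYB, WRKY and bZIP sets, one bar per library (A to C), with paps1-3 left and wild type right of the line. The shares do not depend on scaling: BZIP34 held 45.4% in paps1-3 and 8.99% in wild type, and WRKY34 held 15.2% and 4.60%.

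WRKY2 was lower in paps1-3 and WRKY34 was not. WRKY2 stood at 70.9, 71.6 and 82.8 CPM (TMM) in paps1-3, against 277.3, 240.1 and 253.1 CPM in wild type. The highest paps1-3 library was far below the lowest wild-type library, with a log2 fold change of -1.77 ± 0.13 (adjusted p = 1.17e-11 by edgeR). By totals WRKY2 had 115 ± 8 CPM in paps1-3 and 167 ± 15 CPM in wild type, and its log2 fold change of -0.53 ± 0.11 still passed (adjusted p = 0.000314 by edgeR).

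WRKY34 was scarcer than WRKY2. Its TMM-scaled levels of 11.9, 14.3 and 14.02 CPM in paps1-3 and 12.97, 13.9 and 10.1 CPM in wild type overlapped (log2 fold change 0.12 ± 0.16, adjusted p = 0.517 by edgeR). By totals the levels were 19.97, 21.1 and 20.6 CPM against 8.59, 9.37 and 6.18 CPM, and the difference passed (1.36 ± 0.16, adjusted p = 1.07e-06 by edgeR). Of the summed WRKY2 and WRKY34 counts, WRKY34 held 15.2% ± 1.3 in paps1-3, against 4.60% ± 0.83 in wild type (exact permutation p = 0.1). No wild-type library reached the WRKY34 share of any paps1-3 library.

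VQ20, the partner of both WRKY factors, had few counts in wild type and rose under both scalings. Its counts of 186, 125 and 77 in the paps1-3 libraries stood against 17, 13 and 11 in wild type, although paps1-3 C was the shallowest library. TMM-scaled levels were 2.57 ± 0.49 CPM in paps1-3 and 0.624 ± 0.166 CPM in wild type (mean ± SD, n = 3 each). The log2 fold change was 2.04 ± 0.34 (adjusted p = 1.06e-05 by edgeR) and 3.30 ± 0.35 by totals (adjusted p = 2.48e-07 by edgeR). Its rank among all counted genes was between percentiles 79.0 and 81.7 in paps1-3 and between 71.2 and 74.4 in wild type. The annotated gene shares 54 bases with its neighbour AT3G18350, which had 472 to 1109 counts in paps1-3 and 882 to 1068 in wild type and was lower by TMM (log2 fold change -1.36). The libraries do not mark strand, so reads over the shared bases cannot be assigned to either gene, and their part in the rise of VQ20 was not tested.

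The bZIP genes changed in opposite directions, and theirs was the widest divergence within a family here. BZIP18 stood at 98.4, 124.2 and 133.2 CPM (TMM) in paps1-3, against 579.5, 542.5 and 635.3 CPM in wild type. Every paps1-3 library was below every wild-type library, and the log2 fold change was -2.30 ± 0.14 (adjusted p = 3.93e-13 by edgeR), with -1.06 ± 0.10 by totals (adjusted p = 7.39e-08 by edgeR). BZIP34 had 86.0, 101.4 and 107.6 CPM in paps1-3, against 57.2, 49.9 and 67.2 CPM in wild type. It was higher in each paps1-3 library, with a log2 fold change of 0.76 ± 0.14 (adjusted p = 3.55e-05 by edgeR), and 2.01 ± 0.11 by totals (adjusted p = 9.93e-11 by edgeR).

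The bZIP pair also differed in composition. BZIP34 held 46.6%, 44.96% and 44.7% of their summed counts in paps1-3, against 8.98%, 8.43% and 9.57% in wild type (exact permutation p = 0.1). The log2 ratio of BZIP18 to BZIP34 was 0.26 ± 0.06 in the paps1-3 libraries and 3.34 ± 0.10 in the wild-type libraries. The spread between libraries of 1 genotype was thus small beside a difference of -3.08 on the log2 scale.

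**Figure D3:**
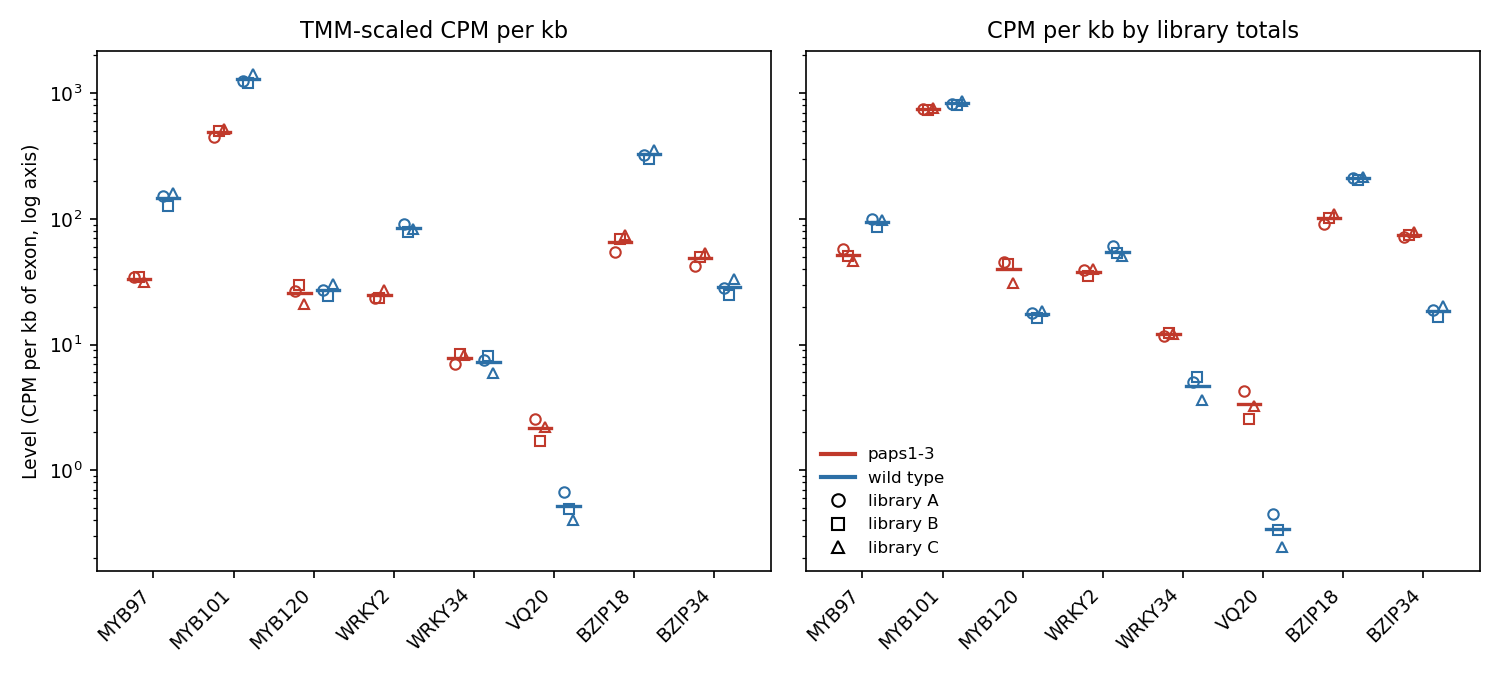
Level of each gene per kilobase of annotated exon in every library on a log axis, by TMM scaling (left panel) and by library totals (right panel), with paps1-3 left of wild type within each gene and lines at the group means. BZIP18 and BZIP34 lie close together in paps1-3, at 65.9 and 48.5 CPM per kb by TMM, and far apart in wild type, at 325 and 28.7 CPM per kb.

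The order of the levels changed as well. Per kilobase and TMM-scaled, the order in paps1-3 was MYB101, BZIP18, BZIP34, MYB97, MYB120, WRKY2, WRKY34 and VQ20, in which the ranges of MYB120 (25.9 ± 4.4 CPM per kb) and WRKY2 (24.8 ± 2.2 CPM per kb) overlapped. In wild type it was MYB101, BZIP18, MYB97, WRKY2, BZIP34, MYB120, WRKY34 and VQ20, in which BZIP34 (28.7 ± 4.3 CPM per kb) and MYB120 (27.2 ± 3.1 CPM per kb) overlapped. BZIP34 thus stood above MYB97 in paps1-3 and below WRKY2 in wild type. The 8 genes together took 0.202% to 0.208% of gene counts in paps1-3 and 0.228% to 0.242% in wild type, of which MYB101 alone made up 69.3% to 69.8% and 65.9% to 67.7%. The other 7 genes could thus shift widely while the sum of all 8, as a share of gene counts, moved little. This holds by library totals only. By TMM MYB101, the largest part of the sum, stood at 931 CPM in paps1-3 against 2445 CPM in wild type. Of the 28 ratios between pairs of these genes, 26 did not overlap between genotypes, where 70.4% of the ratios over all pairs of tested genes did not. The 28 ratios share the same 8 genes and are not independent of one another. Each of the 26 had an exact permutation p of 0.1 (0.108 after adjustment over the 28 pairs). That is the smallest p that 3 against 3 libraries allow, so no pair could have passed. The exceptions were MYB97 to BZIP18 (log2 ratio -1.12 ± 0.28 in paps1-3 and -1.31 ± 0.08 in wild type, p = 0.3 by exact permutation) and MYB120 to WRKY34 (1.74 ± 0.31 and 1.95 ± 0.40, p = 0.5 by exact permutation). The widest difference was in the ratio of VQ20 to BZIP18, which was 4.32 higher on the log2 scale in paps1-3.

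Relatives of the MYB factors were scarce. Of 4 further GAMYB-like genes, 1 had enough counts to test, MYB33, a miR159 target of many tissues, which had 80, 73 and 40 counts in paps1-3 against 4, 1 and 3 in wild type and rose (log2 fold change 3.38 ± 0.56, adjusted p = 1.23e-05 by edgeR). MYB65, the closest relative of MYB33, had 8, 39 and 9 counts against 0, 1 and 0. When any library other than paps1-3 B or C was left out, 2 of the 4 genes were called higher. Of the 16 MYB genes tested by symbol that are neither a factor nor MYB33, 6 rose and 4 fell, with a median log2 fold change of 0.19, and none of those called had an average log2 CPM of 3. By totals 10 rose and 0 fell. Of all genes tested, 42.3% rose and 29.9% fell by TMM, with a median log2 fold change of 0.37. By totals 70.3% of them rose and 9.7% fell.

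Group I WRKY genes, the group that also holds WRKY2 and WRKY34, included several with few or no counts in wild type. Genes with at least 1 count numbered 24587 to 30343 in the paps1-3 libraries and 16869 to 19668 in the wild-type libraries. The part of this wider detection in the values of VQ20, WRKY10, WRKY1, WRKY3, WRKY42, MYB33, IKU1, GPT1, YDA and GID1C was not tested. Of 8 group I genes tested, 4 rose and 1 fell, with a median log2 fold change of 1.55, and by totals 7 rose and 0 fell. These shares are to be read against all genes tested, of which 42.3% rose and 29.9% fell by TMM and 70.3% rose by totals, and 4 of 8 is near the first of them. WRKY10, known from seed size control, had 114, 138 and 71 counts in paps1-3 against 2, 0 and 1 in wild type. WRKY1 had 63, 52 and 37 counts against 0, 0 and 1, while WRKY3, at 37, 29 and 18 counts, was at 0 in all of wild type. The gene that fell was WRKY32, named with its values known, at 57, 106 and 54 counts against 86, 76 and 93 (-1.37 ± 0.28, and -0.13 by totals, which did not pass). The most abundant of them, WRKY4, picked with its values known, did not pass by TMM (0.25 ± 0.14, adjusted p = 0.122 by edgeR) and was higher by totals (1.49). Among the 18 WRKY genes tested by symbol outside group I, TMM scaling called 8 higher and 5 lower, and totals called 13 higher and 0 lower. Among called genes of the family whose average log2 CPM reached 3, the extremes were WRKY27 and WRKY15. WRKY27 was at 0.62 ± 0.16, and WRKY15 at -0.81 ± 0.15 by TMM and at 0.45 by totals. WRKY42, named with its values known, did not reach that average and rose further (6.32 ± 0.40). It had 399, 508 and 333 counts in paps1-3 against 1, 1 and 5 in wild type. WRKY2 was thus called lower by totals, as were 9.7% of all genes tested. Of the 25 WRKY genes tested by symbol besides WRKY2 and WRKY34, 0 were. All of these 25 were scarcer than WRKY2. In wild type WRKY2 stood at 257 CPM (TMM), and the most abundant of the 25, WRKY15, at 32.4 CPM. Whether a fall of the size seen in WRKY2 could be called at their levels was not tested.

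**Figure D4:**
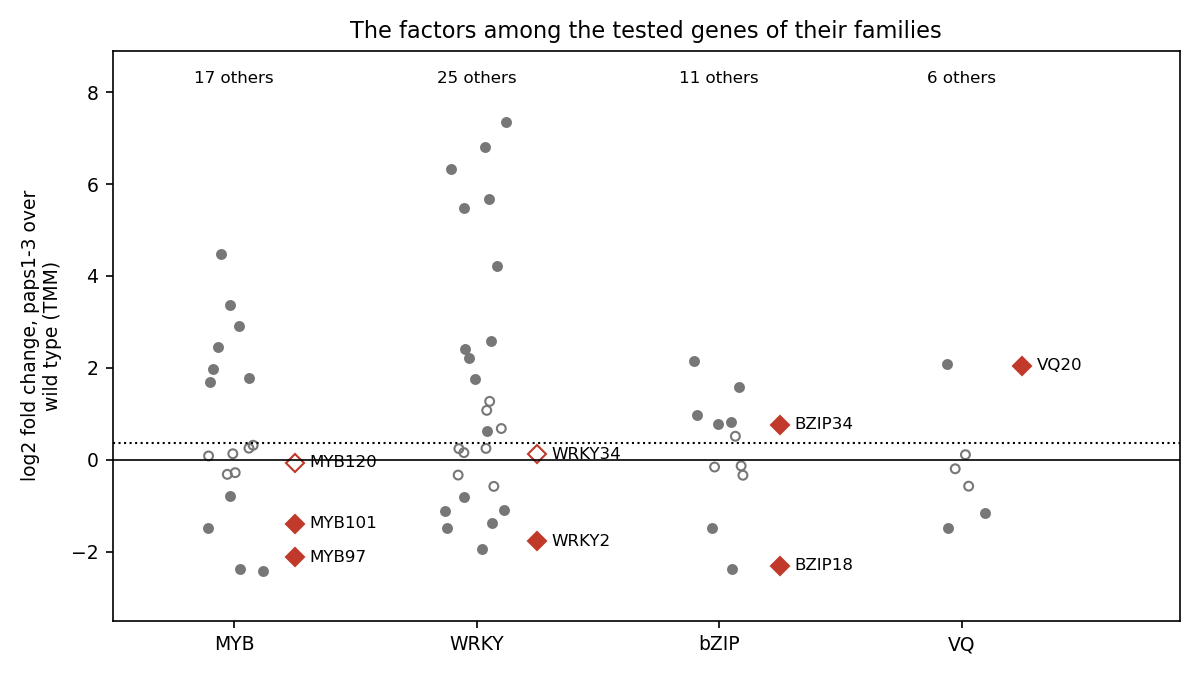
Log2 fold change by TMM of the 8 factors (red diamonds) and of the other tested genes of each family (grey), filled where the adjusted p was below 0.05. The dotted line is the median of all genes tested, 0.37. MYB97, MYB101, WRKY2 and BZIP18 lie below it among relatives on both sides, and fitted values of genes with no wild-type counts, such as WRKY3, depend on the prior count.

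Of 6 tested genes of bZIP groups I and E, 3 rose and 0 fell by TMM (median log2 fold change 0.81), and all 6 rose by totals, where 42.3% of all genes tested rose by TMM and 70.3% by totals. BZIP61, the nearest relative of BZIP34, was at 0.79 ± 0.17 (adjusted p = 0.000241 by edgeR), with 631, 742 and 362 counts in paps1-3 against 159, 146 and 139. BZIP52 was at 0.83 ± 0.21, and BZIP59 at 0.94 ± 0.42 passed narrowly (adjusted p = 0.0471 by edgeR). The count of 3 was 2 with RLE factors and without paps1-3 A, paps1-3 B, wild type B or wild type C, and 4 without wild type A. Of the 9 bZIP genes tested by symbol that are neither a factor nor in these groups, 3 rose and 2 fell, and by totals 7 rose and 1 fell. The extremes among called genes of the family whose average log2 CPM reached 3 were BZIP61 and BZIP25. BZIP25 was at -1.47 ± 0.13 by TMM, and its -0.22 by totals did not pass. In the VQ family 6 of 28 other genes could be tested, of which 1 rose and 2 fell by TMM. The 2 of 6 that fell are near the 29.9% of all genes tested. IKU1, which acts with WRKY10 in the endosperm, rose by 2.09 ± 0.30. AT1G78310 was at -1.49 ± 0.15 and AT1G80450 at -1.15 ± 0.16, and by totals these were -0.24 and 0.10 and did not pass. By totals 3 rose and 0 fell. By TMM 2 VQ genes were called higher when paps1-3 C, wild type A or wild type C was left out.

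The MAP kinase route that acts on WRKY34 was tested in all 6 of its listed genes, GPT1 included, of which 3 rose and 0 fell by TMM and all 6 rose by totals, beside 42.3% and 70.3% of all genes tested. GPT1, a plastid glucose 6-phosphate transporter gene that WRKY2 and WRKY34 are known to activate in pollen, had 406, 540 and 274 counts in paps1-3 against 10, 18 and 10 (log2 fold change 3.84 ± 0.28, adjusted p = 1.28e-11 by edgeR). MPK3 rose by 0.89 ± 0.19, and the upstream kinase gene YDA by 3.74 ± 0.80, with 48, 29 and 20 counts against 0, 1 and 2. MPK6, the most abundant and picked with its values known, had a log2 fold change of -0.02 ± 0.13 (adjusted p = 0.920 by edgeR), and of 1.24 by totals. By TMM GPT1 rose while WRKY2 fell and WRKY34 did not pass. By totals GPT1 (5.07) and WRKY34 (1.36) both rose, and WRKY2 fell (-0.53). Of 9 gibberellin signalling genes, which control GAMYB factors in other tissues, 2 had enough counts. The receptor gene GID1C had 49, 14 and 25 counts against 2, 0 and 0 and rose (4.20 ± 0.95), and GID1A did not pass by TMM (0.91 ± 0.58). Both were called higher by totals, and by TMM the count called was also 2 of the 9 genes when paps1-3 C, wild type A or wild type B was left out.

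Genes with the most similar pattern were sought among the 4202 tested genes whose average log2 CPM reached 3, by the root mean square difference of log2 CPM centred on each gene's mean over the 6 libraries. MYB97 was nearest to RAD5, a helicase gene (0.044), and to ANX2, a receptor kinase gene of pollen tube integrity (0.074). MYB101 was nearest to AT1G44150 (0.042) and to KEU, of the Sec1/munc18 family (0.043), and MYB120 to AT3G43590 (0.070) and the kinesin gene ZWI (0.079). WRKY2 was nearest to AT4G29440 and the cation exchanger gene CHX6B (0.058 each), and WRKY34 to AT1G43690 (0.083) and AT1G19450 (0.095). VQ20, with few counts, had the least close neighbours, AT5G65687 (0.145) and AT4G14360 (0.174). BZIP18 was nearest to NDL2 (0.069) and AT3G54040 (0.070), and BZIP34 to the catalase gene CAT2 (0.045) and the chaperone gene CLPC1 (0.055). With 6 libraries in a pair of groups this likeness is set largely by the size of the difference between genotypes.

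Markers of the vegetative cell were abundant in both groups, with a summed level of 12250 to 14626 CPM (TMM) in paps1-3 and 37187 to 41619 CPM in wild type for 8 genes, of which 6 fell and 1 rose (5 and 2 by totals). By totals their summed levels were closer, at 19197 to 21609 CPM in paps1-3 and 24989 to 26585 CPM in wild type. Most of these sums was VGD1, at a mean of 14942 CPM in paps1-3 and 16109 CPM in wild type. Its log2 fold change by totals, -0.10, did not pass, so the sums say little of the other markers. Of 5 sperm cell markers 4 were tested and 3 fell, with 26.4 to 37.0 CPM against 67.2 to 78.4 CPM. By totals 0 sperm cell markers fell and 1 rose. Their summed levels by totals overlapped, at 40.2 to 54.6 CPM in paps1-3 and 44.0 to 52.7 CPM in wild type. Of 10 tapetum markers, 3 were tested, of which 2 rose and 1 fell (2 and 0 by totals), with a summed level of 1.99 to 3.27 CPM against 2.22 to 2.82 CPM, and by totals of 2.92 to 5.48 CPM against 1.41 to 1.89 CPM, which did not overlap. A9 was at 0 in all libraries, and MS1 and LAP5 were at 0 in wild type. Of 7 green tissue markers 1 was tested and rose, with 1.27 to 1.41 CPM against 0.284 to 0.390 CPM, and RBCS1A, LHCB2.1 and GAPB were at 0 in wild type. These counts are to be read against all genes tested, of which 42.3% rose and 29.9% fell by TMM. By totals 70.3% of all genes tested rose and 9.7% fell. The part of these marker levels in the values of the 8 factors was not tested.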

How the data were processed

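The deposited values are raw read counts per gene, 1 table per library, which the authors made with TopHat2 and HTSeq on build TAIR10, per the submitters' processing notes. The sources used here do not state versions, options or annotation. Libraries were made from total RNA with the Ovation RNA-seq system v2, which keeps no strand information, and sequenced in pairs of 101 and 99 bases, per the labels' protocols. Entries that name no gene entered neither library sizes nor fits. The share of reads outside any feature was 1.52% ± 0.33 in paps1-3 and 1.24% ± 0.09 in wild type, ambiguous reads 2.46% ± 0.17 and 2.34% ± 0.10, and reads placed at several positions 9.84% ± 1.87 and 5.59% ± 0.48 (mean ± SD, n = 3 each). Gene names, exon lengths and sequences came from RefSeq on TAIR10.1, a later release than the authors' build, matched by identifier (32835 of 33602 genes, and all 8 factors), and coordinates are those of TAIR10.1. VQ20 is called so after the list of genes given for this work, and the annotation calls it a VQ motif-containing protein. Apart from VQ20, MYB97 shares 170, WRKY2 43 and WRKY34 34 bases with a neighbouring gene of few counts, and MYB101, MYB120, BZIP18 and BZIP34 share none.

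The test was the robust quasi-likelihood test of edgeR 4.0.16 (R 4.3.3) on counts, with TMM factors, genotype as the only term and filterByExpr (minimum count 10, minimum total 15). Calls used Benjamini-Hochberg adjusted p below 0.05 over the 14273 genes tested. CPM used TMM-scaled library sizes unless library totals are named, and each log2 fold change is given with its standard error. Ratios between genes used a prior count of 0.5. The genes and lists were chosen with earlier results of these data known. Named genes were the 8 factors, PAPS1, up to 3 called genes with the smallest p in each list, the highest and lowest called genes in each family whose average log2 CPM reached 3, and 2 genes of most similar pattern per factor. MYB65 and WRKY42 were also chosen after their values were seen. Library pairs within a group differed by 17.8 to 35.7 times counting noise (chi-square per degree of freedom), so none was a copy. Tested on simulated data (9959 genes, paps1-3 against wild type), the step recovered 80% of 2-fold and 99% of 4-fold changes, with 8 false calls among 187, but without the composition shift of the real data. Alternatives were library totals, RLE and upper-quartile factors, DESeq2 1.42.0, other filters, thinning, a replicate block and leaving out each library.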

Additional observations from a re-analysis of the deposited data

How the results depend on the processing

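Scaling decided most. By library totals, 10031 genes were called higher and 1385 lower, and 4 of the 8 factors higher, MYB101 no longer passed and WRKY34 did. Under every other alternative run (RLE and upper-quartile factors, DESeq2, no filter, 1 CPM in 3 libraries, thinning to 19861313 counts, replicate block, any library left out), 2 factors were called higher and 4 lower. The direction of MYB120, which passed by totals alone, turned by totals (1.19), with upper-quartile factors (0.11), with the 1 CPM filter (0.083) and after thinning (0.043). Leaving out 1 library at a time, its log2 fold change ran between -0.21 and -0.01, and that of WRKY34 between -0.065 (without wild type C) and 0.22. The log2 fold change ranged likewise from -2.46 to -2.17 for BZIP18, 0.60 to 0.87 for BZIP34 and 1.82 to 2.19 for VQ20. The difference in the share of MYB101 among the MYB counts ran between -0.055 (without paps1-3 C) and 1.22 percentage points, and that in the log2 ratio of MYB120 to WRKY34 ran between -0.38 (without wild type B) and 0.014 (without wild type C). Deviations of same-letter libraries correlated at 0.231, 0.099 and 0.076, and those of different letters at -0.156 to 0.068. Whether the letters pair the libraries is therefore not settled. The replicate block gave 6116 genes higher and 4426 lower. VQ20 had at most 17 counts in a wild-type library, which limits its precision.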
